A study of Mus musculus with 10 samples.

Results

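Subunits of respiratory complexes II to V were compared in tumor-draining lymph nodes (TDLNs) after microwave ablation (MWA) with and without 2-deoxy-D-glucose (2DG). Members were the protein-coding genes Sdha to Sdhd, Cyc1, those whose symbols start with Uqcr, Cox4 to Cox8 or Atp5, and the mitochondrial genes mt-Cytb, mt-Co1 to mt-Co3, mt-Atp6 and mt-Atp8. The rule took 55 genes from the reference annotation and 53 of them were in the files, of 33585 genes listed. The other 2, Cox7b2 and Cox8c, were not analysed here. The 53 comprised 4 genes of complex II, 9 nuclear genes of complex III, 16 of complex IV, 18 of complex V and 6 genes encoded in mitochondrial DNA (mtDNA). Of the 53, 51 had a 10-library mean of 1 FPKM or more and were tested among 13334 genes. The other 2, Cox7a1 and Cox8b, are striated muscle isoforms and are described with the isoforms.

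The 10 libraries came from 10 female BALB/c mice aged 6 weeks, 1 library per mouse. Every mouse carried a tumor of 4T1, a mouse mammary carcinoma cell line, in a right mammary fat pad, and every tumor was ablated by MWA on day 10. The 5 mice labelled MWA+2DG received 2DG, a glucose analogue that blocks glycolysis, at 500 mg/kg by intraperitoneal injection every 2 days from day 10. The 5 labelled MWA received PBS in its place, as the study's methods state, and the TDLNs of all mice were collected on day 15. No unablated or untreated nodes were part of the comparison. The values are FPKM (fragments per kilobase of transcript, scaled to the mapped fragments of the library), which hold no read counts, so the depth behind each value is unknown. In whole nodes, fewer cells of a type and less RNA per cell cannot be told apart.

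Complexes II to V are the complexes of oxidative phosphorylation other than complex I. Complex II (succinate dehydrogenase) oxidizes succinate in the TCA cycle, complex III passes electrons from ubiquinol to cytochrome c, complex IV (cytochrome c oxidase) hands them to oxygen, and complex V (ATP synthase) uses the resulting proton gradient to make ATP. Complex II is entirely nuclear-encoded, whereas complexes III, IV and V each combine nuclear subunits with subunits made inside mitochondria from mtDNA. Resting lymphocytes rely on this pathway, and activated lymphocytes add glycolysis, the step that 2DG inhibits.

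No member passed a test of the difference between MWA+2DG and MWA. With limma on log2(FPKM + 1), 0 of 51 passed the study's rule of P below 0.05 with a log2 fold change beyond 0.25, against 2.82% of all 13334 tested genes. An unadjusted P below 0.05 was reached by 0 of 51 members, against 4.25% of all tested genes. In an exact Wilcoxon rank-sum test it was reached by 0 of 51 members, against 416 of all 13334 tested genes. An adjusted p below 0.05 (Benjamini-Hochberg) was reached by 0 members and by 0% of all tested genes, and the smallest adjusted p of any member was 0.995. The MWA+2DG and MWA values overlapped for all 51 members. Groups did not overlap for 0.802% of all tested genes, a share so small that any 51 genes could well hold none. The smallest P of a member was 0.0769, for Atp5mpl.

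The nuclear-encoded members were nonetheless nearly all slightly lower on average in MWA+2DG. Their mean was lower for 43 of 45, with Cox6a2 and Cox6b2 the exceptions, against 47.4% of all tested genes, and for 39 to 43 of 45 under 4 other scalings of the libraries. The median log2 fold change was −0.08 over the 4 complex II genes, −0.11 over the 9 nuclear genes of complex III, −0.12 over the 14 of complex IV and −0.15 over the 18 of complex V. Over the 6 mtDNA-encoded members it was 0.0046, with 3 higher and 3 lower, and over all 13334 tested genes it was 0.0074. The members were measured in the same 10 libraries, so the count of lower means is not a count of independent observations. With each library rescaled to a total of 1000000, which moved the median of all tested genes to 0.0682, the medians were −0.02 (complex II), −0.05 (complex III), −0.05 (complex IV), −0.10 (complex V) and 0.07 (mtDNA-encoded). Under quantile normalization they were −0.03, −0.06, −0.06, −0.10 and 0.11 in the same order.

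The shift was smaller without 1 library, MWA replicate 5. Leaving it out, the medians were −0.05 for complex II, −0.05 for complex III, −0.04 for complex IV and −0.08 for complex V, and the mtDNA-encoded median turned to −0.07. The number of nuclear members with a lower mean went from 43 to 38 of 45. The 95% intervals of the log2 fold change of FPKM + 1 lay within ±1 for all 51 members, as they did for 12748 of all 13334 tested genes. They reached −0.85 on the lower side (Uqcr10) and 0.39 on the upper side (Cox4i2 and Cox6b2). Cox4i2 and Cox6b2 averaged 2.14 and 1.08 FPKM over the libraries, and this scale understates fold changes of such low genes.

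**Figure D1:**
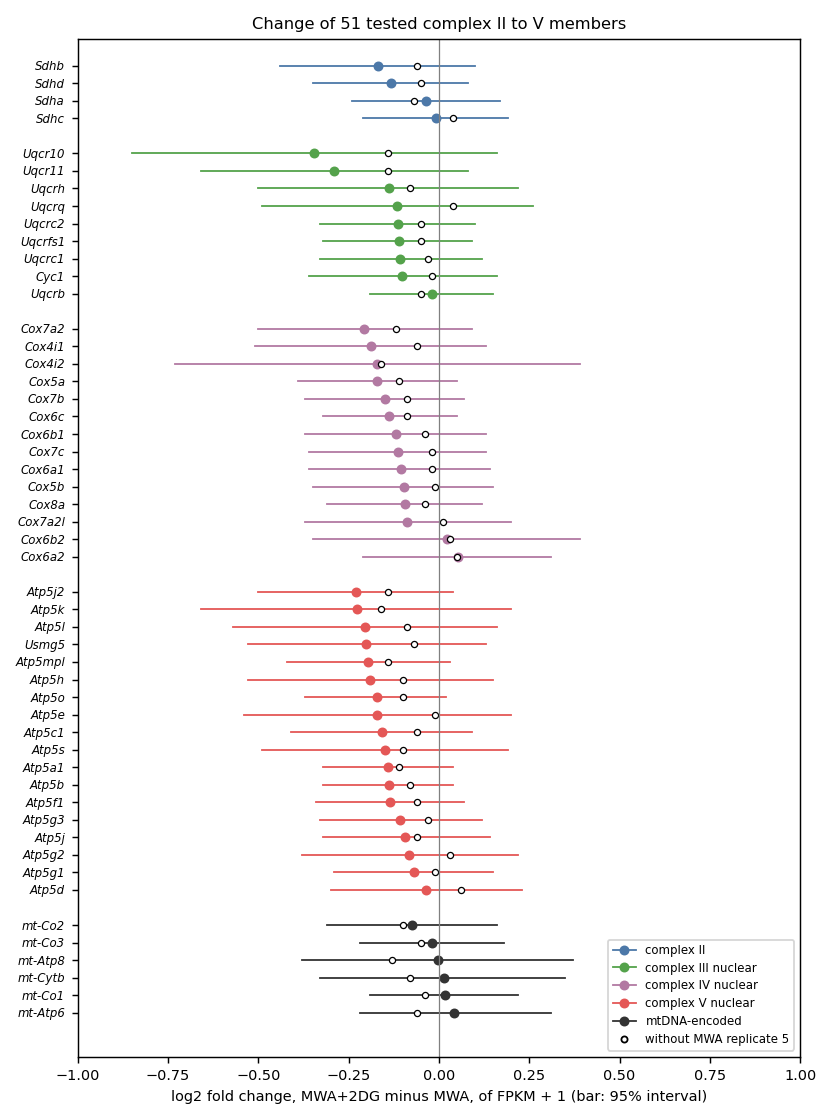
Log2 fold change of FPKM + 1, MWA+2DG minus MWA, for the 51 tested members, grouped by complex and genome of origin. Filled points give the estimate from all 10 libraries (n = 5 per group) with its 95% interval from limma, and open points the estimate without MWA replicate 5. Every interval crosses 0, and most open points lie nearer to 0 than the filled ones among nuclear members.

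The libraries differed from each other more than the groups did. The 47 nuclear-encoded members summed to 2936, 2732, 2389, 2332 and 3457 FPKM in MWA replicates 1 to 5 and to 2396, 2614, 2588, 2545 and 2296 FPKM in MWA+2DG replicates 1 to 5. The means were 2769 ± 458 (SD, n = 5) and 2488 ± 137 (SD, n = 5). MWA replicates 1, 2 and 5 lay above every MWA+2DG library, and MWA replicates 3 and 4 lay among them. Without MWA replicate 5 the MWA mean was 2597 ± 287 (SD, n = 4).

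The 6 mtDNA-encoded members followed another order. They summed to 14706, 13961, 12732, 13637 and 11060 FPKM in MWA replicates 1 to 5, and to 14391, 15402, 12816, 12122 and 11390 FPKM in MWA+2DG replicates 1 to 5. The means of 13219 ± 1400 and 13224 ± 1647 (SD, n = 5 each) were nearly equal. MWA replicate 5 had the highest nuclear sum and the lowest mtDNA-encoded sum of the 10. Its ratio of mtDNA-encoded to nuclear-encoded FPKM was 3.20, while the other 9 libraries lay between 4.76 and 6.01. The group means of this ratio were 4.90 ± 1.00 in MWA and 5.32 ± 0.59 in MWA+2DG (SD, n = 5 each).

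**Figure D2:**
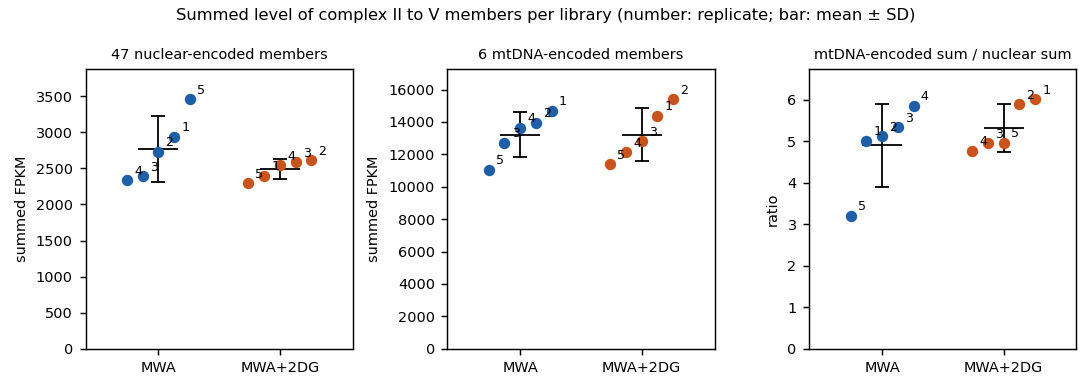
Summed FPKM of the 47 nuclear-encoded members (left) and the 6 mtDNA-encoded members (middle), and the ratio of the mtDNA-encoded to the nuclear sum (right), per library. Points are libraries numbered by replicate, and bars are the mean ± SD (n = 5). MWA replicate 5 is highest in the left panel at 3457 FPKM and lowest in the other panels, at 11060 FPKM and a ratio of 3.20.

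MWA replicate 5 was the highest of all 10 libraries for 37 of the 47 nuclear-encoded members and the lowest for 4 of the 6 mtDNA-encoded ones. The median nuclear member lay 0.36 above its 10-library mean there on the log2(FPKM + 1) scale. The corresponding deviations were 0.15 in MWA replicate 1 and 0.07 in MWA replicate 2, and between −0.18 and 0 in the other 7 libraries. The median mtDNA-encoded member lay 0.31 below its mean in MWA replicate 5, and MWA+2DG replicate 2 was highest at 0.23 above. Exceptions among the nuclear genes in MWA replicate 5 included Uqcrb, a small complex III subunit at its lowest value there (34.3 FPKM, against 35.8 to 42.2 in the other libraries). Sdha, at 43.1 FPKM, was there at its lowest of the 5 MWA libraries. Cox6a2 and Cox6b2 each ranked 7 from the highest of the 10 there.

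**Figure D3:**
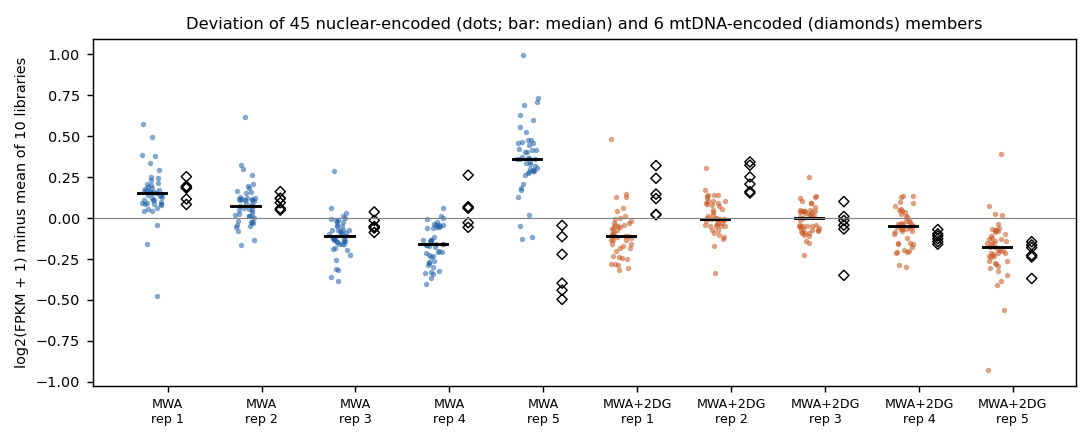
Deviation of each tested member from its own mean over the 10 libraries, on the log2(FPKM + 1) scale. Dots are the 45 nuclear-encoded members (bars are their medians) and diamonds the 6 mtDNA-encoded members. Dots and diamonds part in MWA replicate 5, where the median nuclear deviation is 0.36 and the median mtDNA-encoded deviation −0.31.

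Complex II was represented by its 4 subunits. Sdha, the flavoprotein that oxidizes succinate, was at 50.95, 52.1, 46.0, 44.9 and 43.1 FPKM in MWA replicates 1 to 5 and at 51.3, 51.7, 44.1, 45.1 and 39.5 FPKM in MWA+2DG replicates 1 to 5. In both groups replicates 1 and 2 were the highest, and the groups overlapped over nearly their whole range. The log2 fold change was −0.04 (SE 0.092, exact permutation p = 0.714, n = 5 per group) and turned to 0.03 with each library rescaled to a total of 1000000. Sdhb, the iron-sulfur subunit, was at 38.7, 38.6, 33.0, 31.8 and 52.3 FPKM in MWA and at 34.3, 37.0, 34.2, 33.7 and 30.8 FPKM in MWA+2DG, in the same order. Only MWA replicate 5 stood clear of the remaining 9 libraries. The log2 fold change was −0.17 (SE 0.12, exact permutation p = 0.238, n = 5 per group), and −0.06 without that library.

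The membrane anchors of complex II are Sdhc and Sdhd. Sdhd was at 61.8, 57.5, 54.5, 56.1 and 77.97 FPKM in MWA replicates 1 to 5 and between 53.2 and 57.5 FPKM in MWA+2DG. The MWA+2DG values sat within the span of the 4 lower MWA libraries, apart from MWA+2DG replicate 2, which was lowest of all. Sdhd gave the smallest P of the complex, with a log2 fold change of −0.13 (SE 0.096, exact permutation p = 0.167, n = 5 per group). Sdhc averaged 17.1 ± 2.10 FPKM in MWA and 17.0 ± 1.08 FPKM in MWA+2DG (SD, n = 5 each), with a log2 fold change of −0.0087 that turned to 0.05 under the same rescaling.

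In complex III, the electron-carrying subunits encoded in the nucleus are cytochrome c1 (Cyc1) and the Rieske iron-sulfur protein (Uqcrfs1). Cyc1 was at 54.8, 52.2, 42.1, 40.8 and 62.0 FPKM in MWA replicates 1 to 5 and at 46.7, 49.7, 48.1, 46.6 and 40.8 FPKM in MWA+2DG. MWA replicates 1, 2 and 5 lay above every MWA+2DG library, replicates 3 and 4 were within their range, and the log2 fold change was −0.10 (SE 0.12, exact permutation p = 0.46, n = 5 per group). Uqcrfs1 was at 54.1, 50.4, 52.3, 50.3 and 63.7 FPKM in MWA and at 43.4, 48.6, 56.5, 53.9 and 48.0 FPKM in MWA+2DG. Its spread was similar in both groups, and the log2 fold change was −0.11 (SE 0.093, exact permutation p = 0.254, n = 5 per group). The core proteins Uqcrc1 and Uqcrc2, which form the matrix face of the complex, each came out at −0.11 on the log2 scale (exact permutation p = 0.325 and p = 0.278, n = 5 per group).

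The largest differences of any member were those of the small complex III subunits Uqcr10 and Uqcr11. Uqcr10 was at 88.9, 80.0, 56.3, 55.6 and 141 FPKM in MWA replicates 1 to 5 and at 57.8, 76.7, 67.2, 57.0 and 55.03 FPKM in MWA+2DG. MWA replicate 5 was far above the next library, and replicates 3 and 4 of MWA were as low as the lowest MWA+2DG libraries. This gave a log2 fold change of −0.35 (SE 0.23, exact permutation p = 0.238, n = 5 per group), with a 95% interval from −0.85 to 0.16, and −0.14 without MWA replicate 5. Uqcr11 was at 40.1, 33.2, 35.2, 27.2 and 56.7 FPKM in MWA and at 28.3, 33.5, 34.7, 28.9 and 27.1 FPKM in MWA+2DG. Here MWA replicate 4 fell among the lowest MWA+2DG values. On the log2 scale the fold change was −0.29 (SE 0.17, exact permutation p = 0.167, n = 5 per group), −0.14 without MWA replicate 5, and −0.40 (P = 0.0256, adjusted p = 0.876, limma) without MWA replicate 4.

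Uqcrh, the hinge protein beside cytochrome c1, differed in that MWA replicate 1 was its highest library. It was at 124, 102, 67.0, 72.7 and 108 FPKM in MWA replicates 1 to 5 and at 81.4, 96.6, 88.2, 80.5 and 73.1 FPKM in MWA+2DG, so that the MWA libraries lay on either side of all MWA+2DG libraries. Its log2 fold change of −0.14 had a 95% interval from −0.50 to 0.22. The last small subunits of the complex, Uqcrq and Uqcrb, came out at −0.12 and −0.02 on the log2 scale, but Uqcrq turned to 0.04 without MWA replicate 5 and Uqcrb to 0.05 under the rescaling to 1000000.

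In complex IV, Cox4i1, which carries the regulatory nucleotide site, was among the most abundant nuclear members. It was at 196, 177, 151, 141 and 256 FPKM in MWA replicates 1 to 5 and at 148, 165, 167, 165 and 145 FPKM in MWA+2DG. The MWA+2DG libraries lay close together, with MWA replicates 1, 2 and 5 above them, replicate 3 among them and replicate 4 under them. Its log2 fold change was −0.19 (SE 0.15, exact permutation p = 0.27, n = 5 per group), and −0.06 without MWA replicate 5. Cox5a, a subunit facing the matrix, was at 38.6, 29.8, 33.1, 35.0 and 42.5 FPKM in MWA and at 28.3, 32.7, 34.5, 31.7 and 30.6 FPKM in MWA+2DG. Its P was the smallest of the complex, with a log2 fold change of −0.17 (SE 0.099, exact permutation p = 0.119, n = 5 per group), and the MWA+2DG libraries were covered by the lower 4 MWA libraries except for replicate 1, the lowest.

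Of the remaining complex IV members, Cox7a2 and Cox6c had the next smallest P values. Cox7a2 averaged 59.4 ± 11.8 FPKM in MWA and 50.8 ± 5.12 FPKM in MWA+2DG (SD, n = 5 each; log2 fold change −0.21). Cox6c averaged 22.6 ± 2.68 and 20.4 ± 0.805 FPKM (log2 fold change −0.14). Cox7c, a small subunit that the study also chose for a PCR assay, was at 47.3, 40.2, 40.3, 38.7 and 56.9 FPKM in MWA and at 37.7, 39.1, 45.8, 41.3 and 40.5 FPKM in MWA+2DG. Except for MWA replicates 1 and 5, the Cox7c libraries of the groups intermingled (log2 fold change −0.11, exact permutation p = 0.365, n = 5 per group). Cox5b, a zinc-binding subunit, had a log2 fold change of −0.10. Cox6a1 averaged 149 ± 26.2 FPKM in MWA and 137 ± 8.30 FPKM in MWA+2DG, and Cox6b1 averaged 104 ± 17.0 and 94.9 ± 7.82 FPKM (SD, n = 5 each), with log2 fold changes of −0.11 and −0.12.

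In complex V, the catalytic core is built from the alpha and beta subunits, listed here under the older symbols Atp5a1 and Atp5b. Atp5a1 was at 216, 218, 201, 197 and 234 FPKM in MWA replicates 1 to 5 and at 195, 202, 196, 208 and 166 FPKM in MWA+2DG. It varied little between libraries, and MWA+2DG replicate 5 lay below all others. The difference was, in log2 fold change, −0.14 (SE 0.080, exact permutation p = 0.0635, n = 5 per group), with a 95% interval from −0.32 to 0.04, and −0.11 without MWA replicate 5. Atp5b was at 173, 170, 155, 160 and 200 FPKM in MWA and at 164, 161, 152, 159 and 141 FPKM in MWA+2DG. The groups overlapped between 155 and 164 FPKM, and the log2 fold change was −0.14 (SE 0.082, exact permutation p = 0.0873, n = 5 per group).

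The smallest P values of all members belonged to accessory and stalk subunits of complex V. Atp5mpl, a small protein that copurifies with ATP synthase, was at 38.8, 34.0, 29.3, 28.6 and 39.1 FPKM in MWA replicates 1 to 5 and at 29.1, 31.5, 30.3, 28.01 and 27.7 FPKM in MWA+2DG. MWA replicates 1, 2 and 5 were above every MWA+2DG library and replicates 3 and 4 were not. This gave a log2 fold change of −0.20 (SE 0.0999, exact permutation p = 0.103, n = 5 per group). Atp5o, the peripheral stalk subunit that confers oligomycin sensitivity, was at 57.8, 53.5, 49.2, 49.6 and 66.7 FPKM in MWA and at 46.4, 49.2, 50.0, 51.2 and 46.99 FPKM in MWA+2DG. The same 3 MWA libraries stood above MWA+2DG (log2 fold change −0.17, SE 0.089, exact permutation p = 0.0714, n = 5 per group). Atp5j2, a membrane subunit, showed that split again, at 30.0, 27.2, 22.9, 22.8 and 35.3 FPKM in MWA and between 20.8 and 26.2 FPKM in MWA+2DG (log2 fold change −0.23, SE 0.12, exact permutation p = 0.0952, n = 5 per group).

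The other 10 nuclear members of complex V, leaving aside the c-ring genes described with the isoforms, all had a lower mean, although Atp5d turned higher (0.03) with each library rescaled to a total of 1000000. Their log2 fold changes ran from −0.23 for Atp5k, a membrane subunit that holds ATP synthase dimers together, to −0.04 for Atp5d, the delta subunit of the central stalk. Atp5c1, the gamma subunit that turns within the catalytic head, was at 97.6, 101, 82.7, 85.1 and 128 FPKM in MWA replicates 1 to 5 and at 90.5, 93.1, 85.6, 87.04 and 80.7 FPKM in MWA+2DG. MWA replicate 5 stood apart here too, and the log2 fold change of −0.16 was −0.06 without it. Atp5f1, the peripheral stalk subunit b, averaged 45.2 ± 6.37 FPKM in MWA and 40.7 ± 1.91 FPKM in MWA+2DG (SD, n = 5 each). Atp5s, a factor named with the family rather than a stoichiometric subunit, was the lowest gene of the complex, at 3.19 ± 0.59 and 2.82 ± 0.78 FPKM.

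Members passed the threshold only when a low MWA library was left out. Without MWA replicate 4, Uqcr11, Cox7a2, Atp5j2 and Atp5mpl passed the study's rule, and without MWA replicate 3, Atp5h and Atp5j2 did, with adjusted p between 0.876 and 0.971 (limma). Of all 13334 tested genes, 401 passed the rule without MWA replicate 4 and 427 without MWA replicate 3. No other omission of a library brought a member past the rule. Atpif1, the inhibitor of ATP hydrolysis by complex V, is no member under its symbol in the reference, and averaged 20.1 ± 3.01 FPKM in MWA and 17.8 ± 1.94 FPKM in MWA+2DG (SD, n = 5 each; log2 fold change −0.16, exact permutation p = 0.198).

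**Figure D4:**
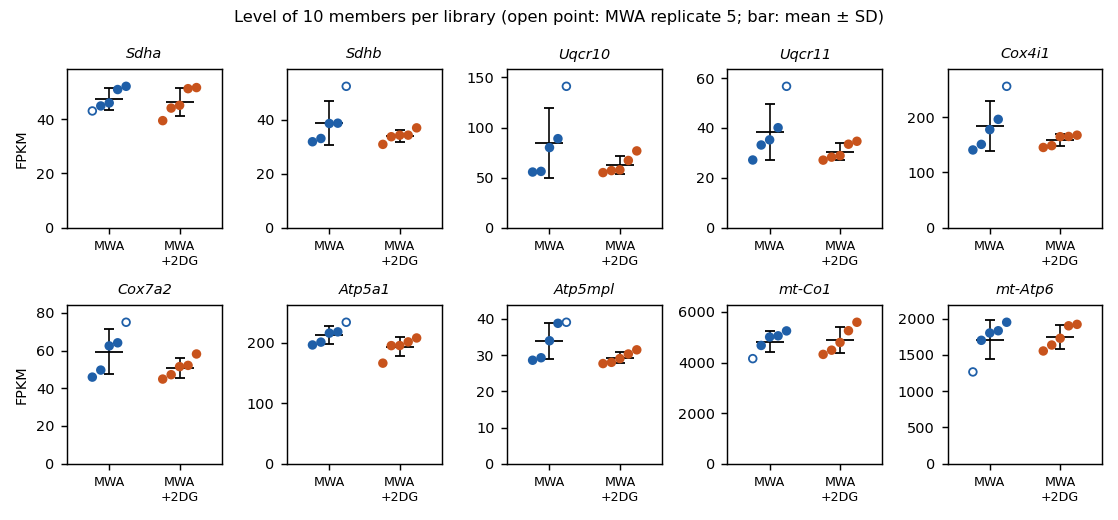
FPKM of 10 members per library in MWA (blue) and MWA+2DG (orange), each panel on its own axis from 0. Bars are the mean ± SD (n = 5) and the open point is MWA replicate 5. That point is the highest MWA library for Sdhb, Uqcr10, Uqcr11, Cox4i1, Cox7a2, Atp5a1 and Atp5mpl, and the lowest for Sdha, mt-Co1 and mt-Atp6.

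The mtDNA-encoded members were far more abundant than the nuclear ones per length, and none passed a test between groups. Mt-Co1, the catalytic subunit of complex IV, was at 5251, 5009, 4676, 5057 and 4154 FPKM in MWA replicates 1 to 5 and at 5259, 5593, 4794, 4489 and 4322 FPKM in MWA+2DG. The libraries of both groups filled the same range, with a log2 fold change of 0.02 (SE 0.094, exact permutation p = 0.873, n = 5 per group) and a 95% interval from −0.19 to 0.22. Mt-Co2, which receives electrons from cytochrome c, averaged 2095 ± 218 FPKM in MWA and 1994 ± 270 FPKM in MWA+2DG (log2 fold change −0.07). Mt-Co3 averaged 1741 ± 146 and 1722 ± 179 FPKM (log2 fold change −0.02). Mt-Cytb, the mtDNA-encoded subunit of complex III, averaged 1582 ± 244 and 1605 ± 319 FPKM (SD, n = 5 each; log2 fold change 0.01).

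The mtDNA-encoded complex V subunits are mt-Atp6, which forms the proton channel with the c-ring, and mt-Atp8. Mt-Atp6 was at 1950, 1833, 1701, 1802 and 1265 FPKM in MWA replicates 1 to 5 and at 1901, 1921, 1729, 1636 and 1554 FPKM in MWA+2DG. MWA replicate 5 was clearly the lowest. On the log2 scale the fold change was 0.04 (SE 0.12, exact permutation p = 0.794, n = 5 per group), and −0.06 without that library. Mt-Atp8 was at 1316, 1351, 1275, 1490 and 880 FPKM in MWA and at 1552, 1554, 975, 1138 and 1096 FPKM in MWA+2DG, with a log2 fold change of −0.0038. Replicates 1 and 2 of MWA+2DG were the highest and replicates 3 to 5 lay below the 4 higher MWA libraries, so mt-Atp8 was 0.22 higher within replicates 1 and 2 and 0.15 lower within replicates 3 to 5 on the log2 scale.

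These last genes cannot be fully separated by their reads. In the GENCODE mouse annotation the end of mt-Atp8 and the start of mt-Atp6 are the same 43 bases (GRCm38, chrM:7927-7969, plus strand), which is 21.1% of the 204 bases of mt-Atp8. The stretch is shown because a fragment from it can count toward either gene, and capitals mark the mt-Atp6 start codon.
mt-Atp8/mt-Atp6 overlap: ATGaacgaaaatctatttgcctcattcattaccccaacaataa

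Per length, every mtDNA-encoded member averaged above every nuclear member in the node. The 6 mtDNA-encoded members had means over the 10 libraries between 1263 FPKM (mt-Atp8) and 4861 FPKM (mt-Co1) and made up 3.07% to 4.73% of all FPKM in a library. The most abundant nuclear members were Atp5a1 at 203 FPKM, Cox4i1 at 171 FPKM, Cox7a2l at 165 FPKM and Atp5b at 164 FPKM on average, and the last 3 did not differ beyond their spread. All 47 nuclear members together made up 0.729% to 0.960%. The 4 complex II subunits, which are present in equal number in the enzyme, averaged 46.9 (Sdha), 36.4 (Sdhb), 17.1 (Sdhc) and 58.6 FPKM (Sdhd).

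Several subunits exist in isoforms that differ between tissues, and their shares within a library do not depend on the scaling between libraries. The node expressed almost wholly the ubiquitous forms in both groups. Cox4i2, a form known from lung and vascular cells, made up 1.08%, 2.01%, 1.37%, 0.904% and 0.894% of the Cox4i1 and Cox4i2 sum in MWA replicates 1 to 5, and 2.13%, 1.44%, 1.24%, 0.985% and 0.404% in MWA+2DG. Its mean share was 1.25 ± 0.47% and 1.24 ± 0.63% (SD, n = 5 each). The summed markers of vascular smooth muscle and pericytes lay between 64.5 and 78.8 FPKM in MWA and between 56.7 and 86.3 FPKM in MWA+2DG, and their part in the Cox4i2 share was not tested.

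Striated muscle isoforms were at trace levels. Cox6a2 made up 2.27 ± 0.37% of the Cox6a1 and Cox6a2 sum in MWA and 2.58 ± 0.67% in MWA+2DG (SD, n = 5 each), and Cox7a1 between 0.173% and 0.451% of the Cox7a1, Cox7a2 and Cox7a2l sum over all libraries. Cox8b, found in striated muscle and brown fat, was listed at 0 in 9 libraries and at 0.553 FPKM in MWA+2DG replicate 2. The summed adipose markers were between 4.59 and 18.8 FPKM in MWA and between 5.31 and 99.4 FPKM in MWA+2DG, with 55.3 FPKM in MWA+2DG replicate 2 and the highest value in replicate 5, where Cox8b was listed at 0. Skeletal muscle markers summed to between 8.18 and 10.9 FPKM in every library. Cox6b2, a testis form, made up 1.06 ± 0.52% and 1.13 ± 0.31% of the Cox6b1 and Cox6b2 sum.

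Among forms shared by many tissues, Cox7a2l, which acts in assembling complexes III and IV into supercomplexes, made up 74.0 ± 0.95% of its set in MWA and 75.6 ± 2.35% in MWA+2DG. The 3 genes for the c-ring of complex V encode the same mature protein and differ in their targeting peptides. Atp5g2 made up 48.9 ± 1.79% of their sum in MWA and 49.3 ± 2.34% in MWA+2DG, Atp5g3 made up 47.6 ± 1.79% and 47.2 ± 2.41%, and Atp5g1 made up 3.50 ± 0.30% and 3.54 ± 0.49% (SD, n = 5 each). The group means of every share differed by less than either SD, except those of Cox7a2l and Cox8b, which differed by less than the larger SD. Isoform transcripts of a pair shared exact runs of at most 21 bases (Atp5g1 and Atp5g2). Cox7b averaged 61.6 ± 8.05 FPKM in MWA and 55.3 ± 4.68 FPKM in MWA+2DG (log2 fold change −0.15), and its partner Cox7b2 was not analysed here, nor was Cox8c beside Cox8a (152 ± 20.4 and 142 ± 7.74 FPKM, log2 fold change −0.10).

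No gene of the lists around the complexes passed the study's rule, which 2.82% of all tested genes passed. Of 36 tested assembly factors of complexes II to V, 0 passed the study's rule, 23 had a lower mean and the median log2 fold change was −0.05. Of 19 tested electron carriers and transporters, which include cytochrome c and the adenine nucleotide carriers, 0 passed, 13 were lower and the median was −0.08. Of 27 tested genes of mitochondrial transcription and RNA handling, 0 passed and the median was −0.01. Of 14 tested regulators of nuclear mitochondrial genes, such as Nrf1, Gabpa and Ppargc1b, 0 passed and the median was 0.04. Ppargc1a and Ppara, listed with them, averaged under 1 FPKM and were not tested. Of 14 tested TCA cycle enzymes, 13 were lower with a median of −0.06, and 0 passed the rule. Fumarase (Fh1), named after its values were seen, was the only one of them with an unadjusted P below 0.05, at 32.3 ± 3.37 FPKM in MWA and 27.9 ± 2.48 FPKM in MWA+2DG (mean ± SD), with a log2 fold change of −0.20 (limma, adjusted p = 0.995).

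Other features of the nodes also differed between libraries or, by unadjusted P, between groups. The study's rule was passed by 2.82% of all tested genes. By it 3 of 11 tested T cell markers were higher in MWA+2DG (Tcf7, Lef1 and Cd8a). Those lower by it were 4 of 10 markers of dividing cells (Cdk1, Ccnb1, Ccnb2 and Bub1), 2 of 7 plasma cell markers (Xbp1 and Mzb1) and 1 of 9 macrophage markers (Csf1r). Of 8 B cell markers, 0 passed. None of these had an adjusted p below 0.05 (limma), and the defining markers of T and B cells were present in every library. Summed plasma cell markers ran from 326 to 836 FPKM in MWA, highest in replicate 5, and from 249 to 520 FPKM in MWA+2DG. Summed macrophage markers ran from 196 to 294 FPKM, again highest in MWA replicate 5, and from 175 to 238 FPKM. Dividing cell markers summed to 139 to 193 FPKM and 99.3 to 161 FPKM, T cell markers to 370 to 529 FPKM and 390 to 544 FPKM, B cell markers to 1557 to 1765 FPKM and 1459 to 1695 FPKM, and red blood cell markers to 22.6 to 65.6 FPKM and 16.7 to 85.3 FPKM. The part of these cell types in the members' levels was not tested.

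Liver transcripts separated libraries by replicate number in both groups, at 46.8 to 52.5 FPKM summed over 11 genes in replicates 1 and 2 and at 112 to 245 FPKM in replicates 3 to 5. The median log2 fold change of the nuclear members was therefore also taken within each of these sets. It was −0.17 within replicates 1 and 2, with 44 of 45 lower, and −0.13 within replicates 3 to 5, with 39 of 45 lower. Within replicates 3 to 5, which hold MWA replicate 5, the complex medians were −0.10 (complex II), −0.07 (complex III), −0.09 (complex IV) and −0.15 (complex V), and within replicates 1 and 2 they were −0.11, −0.18, −0.18 and −0.17. The mtDNA-encoded median was 0.05 within replicates 1 and 2 and −0.04 within replicates 3 to 5.

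Most nuclear members have short coding sequences, and coding length went with the behavior of MWA replicate 5. Their median coding length was 402 bases, against 1332 bases over 11103 tested protein-coding genes. Across those genes, the level in MWA replicate 5 relative to the other 9 libraries fell with coding length (Spearman's rho −0.55), from a median of 0.242 in the shortest of 10 equal groups of genes to −0.364 in the longest on the log2 scale. The rho was −0.31 in MWA replicate 1, the library with the next highest nuclear members, and between −0.11 and 0.35 in the other 8. The log2 fold change between groups rose with coding length across all these genes (rho 0.32), and without MWA replicate 5 that rho was 0.04. Genes are not independent replicates, and these values describe the libraries.

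Nuclear members of either length class were higher in MWA replicate 5 than tested genes of the same class. The 22 members with a coding length under 400 bases were 0.431 higher there than in the other 9 libraries at the median, and the 596 tested genes of such length 0.268 higher. The 23 longer members were 0.399 higher, and the 10507 longer genes 0.098 lower. The classes were not matched in length. Median coding lengths were 600 bases for the longer members and 1395 bases for the longer genes, and 247 and 318 bases in the shorter class. Tested genes in the length group with a median of 621 bases were 0.104 higher. Within the members, rho with coding length was −0.29. The mtDNA-encoded members went the other way at every length. The SD of a nuclear member over the 10 libraries was larger for shorter coding sequences (rho −0.42, n = 45), and the coefficient of variation was highest among the tested members for Cox4i2 at 40.9%, followed by 36.2% for Uqcr10, 34.3% for Cox6b2, 26.0% for Atp5k and 25.7% for Uqcr11, against 8.82% for Atp5a1 and a median of 14.3% over all tested genes.

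**Figure D5:**
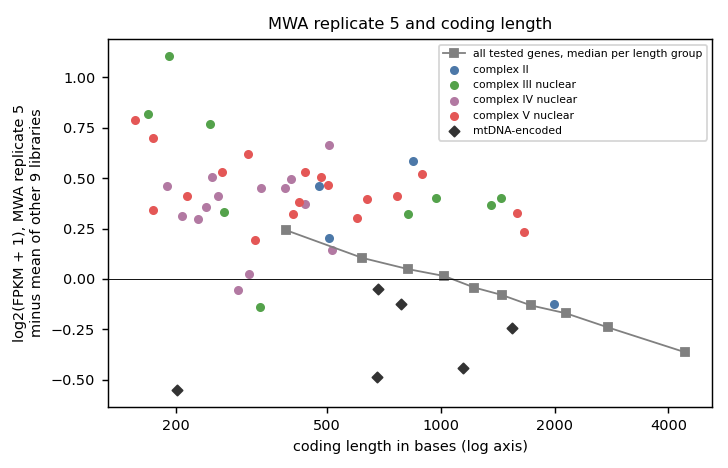
Level in MWA replicate 5 minus the mean of the other 9 libraries, on the log2(FPKM + 1) scale, against coding length on a log axis. Colored points are the 51 tested members, and grey squares the medians of 10 equal groups of 11103 tested protein-coding genes by length. Grey squares fall from 0.242 to −0.364, most nuclear members lie above them, and the mtDNA-encoded members lie below 0.

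The nuclear members are spread over 18 chromosomes and their promoters were searched for motifs that are background knowledge for this gene class. RefSeq promoter sequences (GRCm38.p6) were at hand for 36 of the 47. Within the 250 bases before the listed start, on either strand, the letters GCATGCGC of the nuclear respiratory factor 1 (NRF1) motif occurred in 5 of 36 member promoters (13.9%) and in 2.3% of the promoters of all 27025 genes. The letters CCGGAAG, the core bound by ETS factors such as GABPA, occurred in 8 of 36 (22.2%) and in 7.1% of all. A GC box (GGGGCGGGG) occurred in 6 of 36 (16.7%) and in 10.5% of all, and TATAAA in 2 of 36 (5.6%) and in 13.0%. None of the searched strings contains another, and 2 promoters, those of Cox6a1 and Atp5l, held both.

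Of the promoters with ETS letters, 3 hold them in the 100 bases nearest the start that lie in no annotated exon. They belong to Uqcr11 (chr10:80406831-80406930), Uqcrh (chr4:116075072-116075171) and Atp5e (chr2:174464106-174464205), each on the minus strand of GRCm38.p6. They are shown, 5′ to 3′ on the gene's strand, because they hold the letters in that stretch, and capitals mark the ETS letters on either strand. A relation of the letters to the spread between libraries was not tested.
Uqcr11: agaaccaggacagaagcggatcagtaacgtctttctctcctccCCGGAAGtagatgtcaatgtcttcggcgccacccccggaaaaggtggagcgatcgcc
Uqcrh: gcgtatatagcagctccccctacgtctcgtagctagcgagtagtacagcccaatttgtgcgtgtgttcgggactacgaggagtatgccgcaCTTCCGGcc
Atp5e: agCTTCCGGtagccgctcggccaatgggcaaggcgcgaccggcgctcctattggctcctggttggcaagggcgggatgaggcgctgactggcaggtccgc
The submitters' notes name mm9 for the alignment, so these coordinates describe the reference only. Members with the ETS letters had a median log2 fold change of −0.16 and those without −0.13, and the corresponding medians for the NRF1 letters were −0.17 and −0.14. A match of letters is a description and not evidence of binding.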

How the data were processed

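RNA of TDLNs from 10 mice was poly(A)-selected and sequenced with molecular identifiers. The authors deposited a table of gene-level FPKM values for each library, made with StringTie and ballgown. The submitters' processing notes name cutadapt 1.9, HISAT2 2.0.4, UMI-tools, StringTie 1.3.4d and build mm9, and name no annotation. FPKM is divided by length and mapped reads, so depth and counting error cannot be read from it, and precision rests on the spread between the 5 mice of a group. The sources used here do not say how reads that match processed pseudogenes of these subunits were assigned.

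Symbols came from the reference name table (33541 of 33643 identifiers), and where 1 symbol had several identifiers (57 symbols) their values were added. Groups were compared with limma 3.58.1 (lmFit and eBayes without covariates, R 4.3.3) on log2(FPKM + 1) of the 13334 genes that averaged 1 FPKM or more, with Benjamini-Hochberg adjustment over all of them. Fold changes on this scale understate those of low genes. The call rule (P below 0.05 and a fold change beyond 0.25 on a log scale) is the study's, and the log base, pseudocount and filter were chosen here. Single members also got a two-sided exact permutation test of mean log2(FPKM + 1), whose 252 regroupings allow no p under 0.00794. On simulated data for this comparison, with 200 of 13334 genes shifted by 1 on the log2 scale, 174 of them were recovered at an adjusted p below 0.05. That shift was larger than the change of any member, and the simulated noise was independent between genes. The simulation therefore does not tell how often changes of the members' size would be found. No pair of libraries had equal values at more than a share of 0.000178 of genes.

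The members and gene lists were chosen with earlier results of these data known. Named were the mtDNA-encoded members, defining nuclear subunits, the 3 members of smallest P per complex, isoform sets, called members, members whose groups do not overlap, and genes the study assayed by PCR. Other members were named to account for each complex, after their values were seen. Medians, sums and shares over members carry no test. Alternatives were a pseudocount of 0.1, other filters and scalings, limma-trend, an exact Wilcoxon test, other thresholds, the replicate number as a block, the replicate sets 1 to 2 and 3 to 5, and leaving out each library. Coding lengths came from GENCODE M21 and promoters from RefSeq (GRCm38.p6). Promoters of 11 nuclear members were not searched: Sdhc, Cyc1, Uqcrb, Uqcrc2, Uqcrq, Cox4i1, Cox4i2, Cox6a2, Cox6c, Atp5a1 and Atp5mpl.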

Additional observations from a re-analysis of the deposited data

Results flagged for a closer look

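For 4 members, a library lay far from the other 4 of its group by Dixon's criterion for 5 values (0.71), which chance meets in about 1 in 20 groups. The 6 values below came from 136 groups examined. Uqcrfs1 was at 63.7 FPKM in MWA replicate 5, against 50.3 to 54.1 FPKM in the other MWA libraries. Atp5g1 was at 6.42 FPKM in MWA replicate 5, against 4.90 to 5.07 FPKM, and at 3.83 FPKM in MWA+2DG replicate 2, against 5.06 to 5.48 FPKM. Cox6b2 was at 0.547 FPKM in MWA+2DG replicate 5, against 1.20 to 1.25 FPKM. Cox8b was at 0.553 FPKM in MWA+2DG replicate 2 and listed at 0 in the other 4, so its share of the Cox8a and Cox8b sum was 0.396% there.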

How the results depend on the processing

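The number of members passing the study's rule was 0 under every other filter, scaling, test and threshold tried on the 10 libraries and within either replicate set, and ranged from 0 to 4 leaving out each library in turn. The 4 came without MWA replicate 4, where 401 of all 13334 tested genes passed. The number with an unadjusted P below 0.05 was 0 as reported, 1 (Atp5mpl) with each library rescaled to 1000000 over genes neither mtDNA-encoded nor immunoglobulin, 2 (Cox8a and mt-Atp8) within replicates 1 and 2, and 0 to 6 leaving out each library. Over all 13334 tested genes that number was 567 as reported, 468 with that rescaling and 767 within replicates 1 and 2. It was 571 without MWA replicate 4, the omission that gave 6 members. The medians of the 4 nuclear blocks were negative under every alternative, but smaller by over 1.5 times with libraries rescaled to 1000000 (−0.02 to −0.10) and under quantile normalization (−0.03 to −0.10). The median of all tested genes moved too, from 0.0074 as reported to 0.0682 and 0.0121 under those scalings. The median of all nuclear members was −0.137, −0.0743 and −0.0742 in the same order. The mtDNA-encoded median ran from −0.07 to 0.05 leaving out each library, and was 0.07 and 0.11 under those scalings.

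Some small differences changed sign. The rescalings also moved the median log2 fold change of all tested genes, which was 0.0074 as reported. It was 0.0682 with libraries rescaled to 1000000, and 0.0307 with that total taken without mtDNA-encoded and immunoglobulin genes. The cause of the sign changes was not tested. Under quantile normalization the log2 fold change was 0.0663 for mt-Atp8, 0.114 for mt-Co2, 0.0508 for mt-Co3, 0.0115 for Sdha, 0.00311 for Sdhc, 0.0134 for Uqcrb, 0.0390 for Atp5d and −0.0263 for Cox6b2. With libraries rescaled to 1000000 it was 0.0602 for mt-Atp8, 0.0458 for mt-Co3, 0.0274 for Sdha, 0.0541 for Sdhc, 0.0450 for Uqcrb and 0.0265 for Atp5d. With that total taken without mtDNA-encoded and immunoglobulin genes it was 0.0198 for mt-Atp8, 0.00537 for mt-Co3, 0.0145 for Sdhc and 0.00499 for Uqcrb. Within replicates 1 and 2 it was 0.22 for mt-Atp8 and −0.0861 for Cox6a2, and within replicates 3 to 5 it was −0.0262 for mt-Co1, −0.0545 for mt-Cytb, 0.0548 for Sdhc, 0.0147 for Uqcrb, 0.0153 for Atp5d, −0.0917 for Cox6b2, 0.00422 for Cox8a and 0.0136 for Atp5g2. Leaving out each library, it ran from −0.062 to 0.094 for mt-Atp6, −0.13 to 0.083 for mt-Atp8, −0.037 to 0.059 for mt-Co1, −0.059 to 0.036 for mt-Co3, −0.085 to 0.11 for mt-Cytb, −0.076 to 0.019 for Sdha, −0.061 to 0.036 for Sdhc, −0.056 to 0.020 for Uqcrb, −0.21 to 0.042 for Uqcrq, −0.098 to 0.063 for Atp5d, −0.31 to 0.038 for Cox4i2, −0.038 to 0.12 for Cox6a2, −0.094 to 0.13 for Cox6b2, −0.17 to 0.013 for Cox7a2l, −0.10 to 0.0057 for Atp5g1 and −0.13 to 0.028 for Atp5g2.

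Same-numbered libraries of the groups correlated in their deviations at 0.331, 0.501, 0.11, 0.0334 and 0.151, so not every pair passed 0.1 and the numbers were not taken to pair mice. Not every library correlated best with its own number. With the replicate block 0 members passed the rule and 449 genes did in all, against 376. Over all tested genes the split of calls was 127 higher and 249 lower, 328 and 159 with libraries rescaled to 1000000, 172 and 200 with that total taken without mtDNA-encoded and immunoglobulin genes, and 371 and 290 within replicates 1 and 2. Without depth, the limit of detection of low members such as Cox7a1 and Cox8b is unknown.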
